A study of Mus musculus with 19 samples.

Results

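The 42 genes described here encode the machinery that makes lysosomes acidic and the proteins that work inside them: 16 subunits of the vacuolar proton pump (V-ATPase), 8 lysosomal membrane proteins, 3 lipid transfer and activator proteins, 12 lysosomal hydrolases and 3 transcription factors of the TFEB family. They were picked by gene symbol among the 16941 genes of the deposited tables; no measured value enters the rule, though earlier results of these data were known when it was set. All 42 were found, and all 42 were among the 14113 genes that passed the filter on low counts. The V-ATPase subunits, whose symbols begin with Atp6, were set against the 23 hydrolases, activator proteins and membrane proteins.

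Lysosomes are the acidic compartments in which microglia break down what they engulf, including amyloid. The V-ATPase has a V1 sector in the cytosol, which splits ATP, and a V0 sector in the membrane, through which protons enter. The low pH activates the hydrolases, and the membrane proteins protect the compartment and move lipids, ions and enzymes across its boundary. TFEB, TFE3 and MITF are transcription factors that bind a short promoter element, the CLEAR element, in many of these genes.

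The cells were cortical microglia, the macrophages that reside in the brain; they were taken from C57BL/6 mice 10 to 11 months old. APP libraries came from hAPPJ20 mice, in which the PDGF promoter, active mainly in neurons, drives human APP carrying the Swedish and Indiana mutations of familial Alzheimer disease; wild type (WT) libraries came from mice without this transgene. LPS libraries came from cells exposed to lipopolysaccharide, a bacterial cell wall component that activates macrophages, at 100 ng/mL for 6 h; vehicle libraries came from cells given medium alone. There were 5 APP LPS, 5 APP vehicle, 5 WT LPS and 4 WT vehicle libraries. Before treatment, cells of all groups had been cultured for 4 weeks in medium with 10% serum and M-CSF, a growth factor of macrophages, at 5 ng/mL, and all were given 16 h in fresh medium after it. Since no label tells whether each library had its own animal or culture, the spread behind every p-value is that between libraries and may in part be technical.

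The promoter stretches below show where CLEAR core letters lie in 7 of the genes, chosen to include the pump, the membrane proteins and the hydrolases. They were read from RefSeq promoter records of the GRCm38.p6 build, 5′ to 3′ on the strand of the gene, and end before the annotated start. Capitals mark TCACGTG or its reverse complement CACGTGA, which share 6 letters and can overlap.
Atp6v0b: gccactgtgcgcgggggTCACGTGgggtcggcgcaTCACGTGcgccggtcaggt
Atp6v1a: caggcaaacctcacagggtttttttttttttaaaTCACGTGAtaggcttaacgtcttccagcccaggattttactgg
Lamp1: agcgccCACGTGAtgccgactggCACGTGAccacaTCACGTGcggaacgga
Mcoln1: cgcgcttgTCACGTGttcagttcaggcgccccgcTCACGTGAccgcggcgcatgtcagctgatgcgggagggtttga
Cln3: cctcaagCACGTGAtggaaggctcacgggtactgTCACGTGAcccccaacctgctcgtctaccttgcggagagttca
Gla: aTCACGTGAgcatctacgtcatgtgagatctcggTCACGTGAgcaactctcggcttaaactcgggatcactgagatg
Naglu: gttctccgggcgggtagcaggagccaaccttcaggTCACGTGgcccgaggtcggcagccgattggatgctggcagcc
Their positions are chr4:117887330-117887383 on the minus strand for Atp6v0b, chr16:44139349-44139425 on the minus strand for Atp6v1a, chr8:13159110-13159160 on the plus strand for Lamp1 and chr8:3500439-3500515 on the plus strand for Mcoln1. Those of the others are chr7:126583316-126583392 on the minus strand for Cln3, chrX:134601158-134601234 on the minus strand for Gla and chr11:101069985-101070061 on the plus strand for Naglu. The Lamp1 stretch holds 3 copies of the element, those of Atp6v0b, Mcoln1, Cln3 and Gla hold 2 each, and those of Atp6v1a and Naglu hold 1 each.

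RefSeq promoter records were matched for 35 of the 42 genes. In the window from 250 bases before to 50 bases after the start, TCACGTG, read on both strands, stood in 11 of these 35 (31.4%) and in 4.29% of the 27025 genes of the table. The 11 were Atp6v0b, Atp6v0d1, Atp6v0e and Atp6v1a among 11 V-ATPase subunits, and Lamp1, Mcoln1, Cln3, Gaa, Gla, Glb1 and Naglu among 21 hydrolases, activator and membrane proteins. Every CACGTG in the matched promoters lay within one of these matches, while 8.09% of all genes held CACGTG. The related letters TCATGTG, the M-box of MITF, stood in 5 of 35 promoters (Atp6v0c, Scarb2, Gla, Tpp1 and Ppt1; 14.3%) and in 4.31% of all genes. Within the 250 bases before the start alone, TCACGTG stood in 9 members and TCATGTG in 3. A match is a string of letters and says nothing of binding in these cells.

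Library totals ran from 13065257 to 31248988 counts, so that 3 counts, the level below which a gene is not told from absent, came to 0.0963 to 0.249 CPM, the count scaled by the effective library size as edgeR's cpm gives it. All 14 macrophage and microglia markers were detected in every library. The libraries numbered 57 to 60 stood apart; they are replicate 5 of APP LPS, of APP vehicle and of WT LPS, and replicate 4 of WT vehicle. Their macrophage markers summed to 1762 to 3472 CPM, against 5838 to 11879 CPM in the other 15 libraries. Their 16 pericyte, smooth muscle and fibroblast markers summed to 3634 to 7379 CPM, against 1504 to 5690 CPM in the others. Each group holds 1 of these libraries, and results are given with and without them where they matter. In bulk RNA, fewer cells of a type and less RNA per cell cannot be told apart. Because reads of this 3′ method come from transcript ends, levels below are compared between libraries and not between genes.

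**Figure D1:**
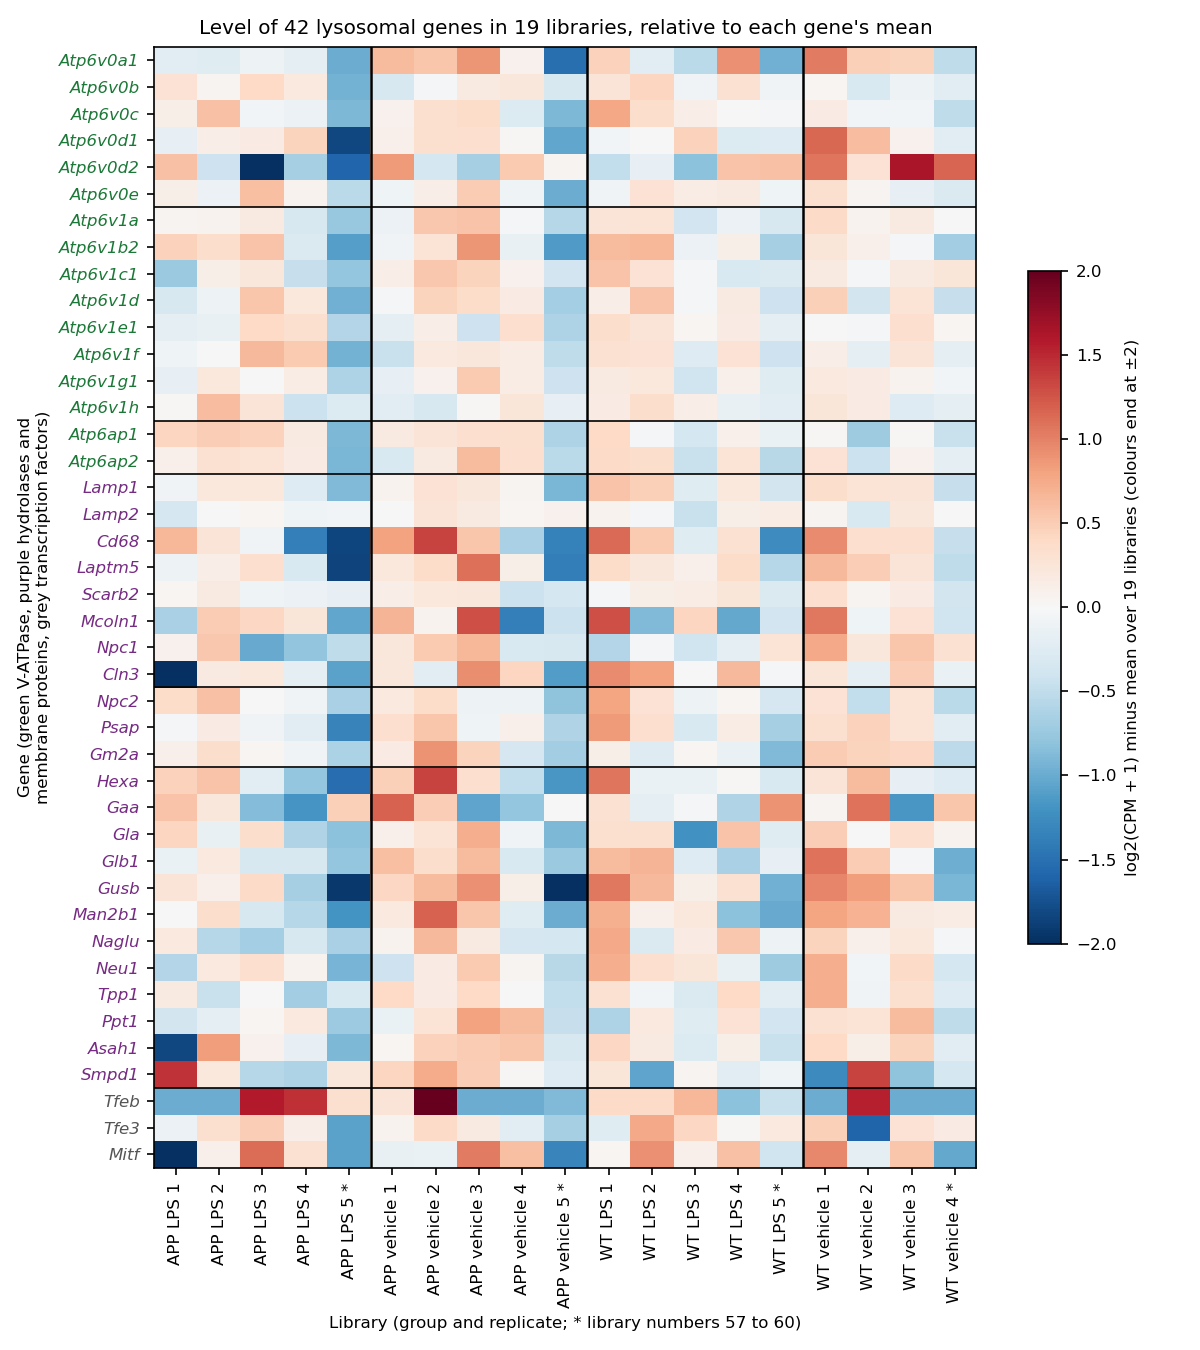
Level of each of the 42 genes in each of the 19 libraries, as log2(CPM + 1) minus the gene's mean over the libraries; columns are libraries by group and rows are genes by role. The 4 columns marked with an asterisk, libraries 57 to 60, are blue for most genes, and no group stands apart over a whole class.

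Most members were measured with less spread than the typical gene, but the comparison was not matched for level. The median of the mean levels was 127 CPM over the members and 15.3 CPM over all genes tested. The median SD of log2 CPM within groups was 0.43 over the V-ATPase subunits, 0.58 over the hydrolases, activator and membrane proteins and 0.95 over the 3 transcription factors, against 0.98 over all genes tested. The steadiest member was Lamp2, a glycoprotein of the lysosomal membrane that also serves chaperone-mediated autophagy, with an SD of 0.19 and a range of 248 to 406 CPM. Gusb, which encodes beta-glucuronidase, had an SD of 1.10 and ranged from 19.3 to 301 CPM. No value of Tfeb was above 9.70 CPM, and 7 of 19 libraries had no Tfeb count.

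The first question was how LPS-treated cells, after their recovery, differed from vehicle-treated cells of the same genotype. Hydrolases, activator and membrane proteins lay mostly below their vehicle level in both genotypes, while the V-ATPase subunits lay about evenly on either side. In APP cells, 21 of the 23 hydrolases, activator and membrane proteins had a log2 change below 0, with a median of −0.35, and 8 of the 16 V-ATPase subunits did, with a median of −0.03. In WT cells these were 18 of 23 with a median of −0.16 and 6 of 16 with a median of 0.06. Over all genes tested, 53% lay below 0 in APP, with a median of −0.03, and 50.7% in WT, with a median of −0.01. These are descriptions of direction, since no single member passed the test, in which libraries were not paired. Fits with library pairs as blocks are given further below.

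By edgeR's quasi-likelihood test with Benjamini-Hochberg adjustment over 14113 genes, 0 members were called in APP and 0 in WT, where 0% of all genes were called in either comparison. DESeq2 and limma voom called 0 members in both, with 76 and 4 genes called over the whole table in APP and 89 and 0 in WT. At an unadjusted edgeR p under 0.05, 0 members were found in APP, where 1.74% of all genes were higher and 3.08% lower. In WT, 2 members were found, Atp6v0d2 and Npc1, both lower, where 2.48% of all genes were higher and 1.18% lower. Averaged over both genotypes, 0 members were called, where 0.0213% of all genes were, and DESeq2 and limma voom again called 0 members, with 178 and 6 genes called over the table. At an unadjusted edgeR p under 0.05, 3 members were lower, Atp6v0d2, Npc1 and Ppt1, and none was higher, where 3.02% of all genes were lower and 3.13% higher. There, 22 of the 23 hydrolases, activator and membrane proteins lay below 0, with a median of −0.21, and 7 of the 16 V-ATPase subunits, with a median of 0.04, where 52.1% of all genes did, with a median of −0.02. All 12 hydrolases and all 8 membrane proteins were below 0, and Npc2 was the exception among the activator and lipid transfer proteins. Without libraries 57 to 60, the medians of the hydrolase and membrane class were −0.42 in APP, −0.20 in WT and −0.27 averaged. The WT median was 0.04 without WT vehicle replicate 1 and stayed below 0 without any other library of the WT groups. The V-ATPase median in APP was 0.15 without APP LPS replicate 5.

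**Figure D2:**
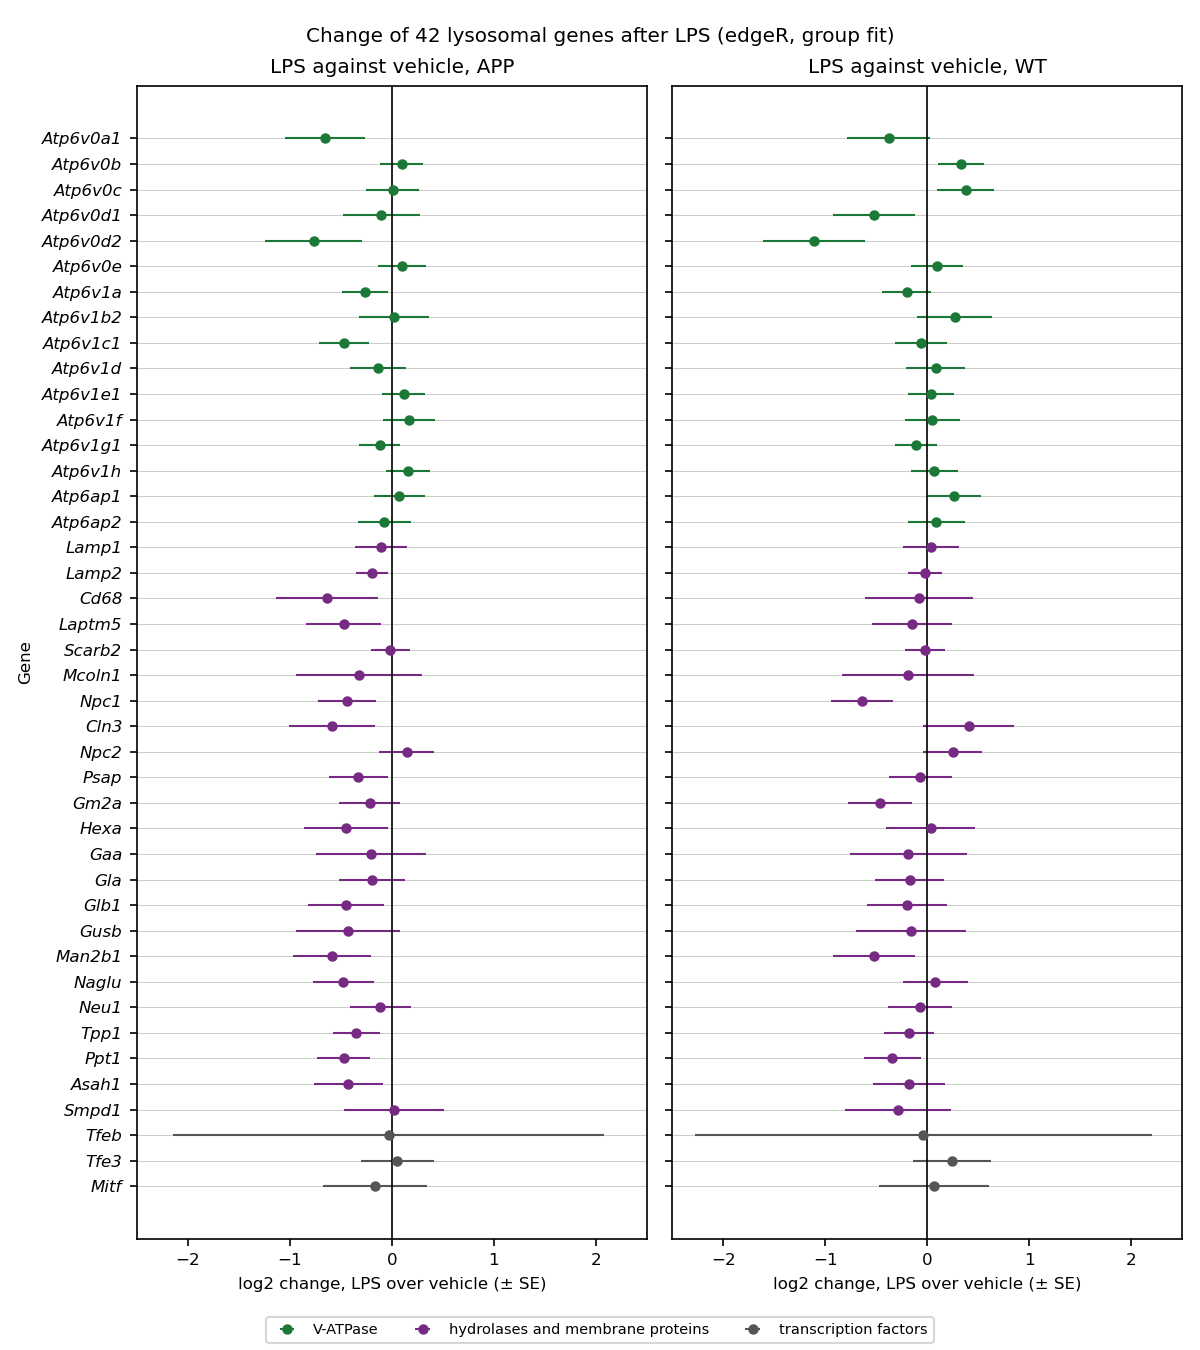
Fitted log2 change of each gene, LPS over vehicle, with its SE, in APP (left) and WT (right); green are V-ATPase subunits, purple hydrolases, activator and membrane proteins, grey transcription factors. Of the purple points, 21 of 23 lie below 0 in APP and 18 of 23 in WT, and no gene passed the test.

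Markers of macrophages and of other cells were read in the same comparison. Averaged over genotypes, 9 of the 14 macrophage markers lay below 0, with a median log2 change of −0.11, and 13 of the 16 pericyte, smooth muscle and fibroblast markers did, with a median of −0.52. The summed pericyte, smooth muscle and fibroblast markers ran from 1504 to 7379 CPM in APP LPS, 1616 to 6205 CPM in APP vehicle, 2172 to 4386 CPM in WT LPS and 2236 to 3925 CPM in WT vehicle libraries. Of that list, Des had no count in 11 libraries, Cspg4 in 6, and Myl9, Cnn1 and Lum in 2 each. Macrophage markers summed to 1762 to 10780 CPM in APP LPS, 2570 to 10932 CPM in APP vehicle, 2785 to 11879 CPM in WT LPS and 3472 to 11092 CPM in WT vehicle libraries. Their part in the lysosomal values was not tested.

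The V0 sector held the subunit with the smallest p. Atp6v0d2, the d subunit isoform of macrophages and osteoclasts, stood at 32.1, 15.5, 3.89, 12.9 and 6.31 CPM in APP LPS, 38.7, 16.4, 12.97, 30.6 and 22.0 in APP vehicle, 14.7, 18.6, 11.5, 31.8 and 32.1 in WT LPS and 45.2, 25.8, 67.7 and 48.6 in WT vehicle libraries. In WT vehicle, 3 of 4 libraries lay above every WT LPS library, and replicate 2 lay within the WT LPS range. Its log2 change after LPS was −0.77 ± 0.48 (SE) in APP and −1.11 ± 0.50 in WT, and −0.94 ± 0.34 averaged, with an edgeR p of 0.0125 and an adjusted p of 0.631. Leaving out 1 library at a time gave −1.22 to −0.82 for the averaged change.

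The d subunit of most tissues is encoded by Atp6v0d1, which stood at 24.1, 29.6, 30.2, 37.1 and 6.95 CPM in APP LPS, 28.9, 34.0, 34.2, 27.4 and 12.7 in APP vehicle, 25.9, 27.2, 37.4, 22.1 and 22.5 in WT LPS and 61.3, 41.8, 28.6 and 23.01 in WT vehicle libraries. Its highest values were WT vehicle replicates 1 and 2, and its lowest was APP LPS replicate 5. Atp6v0a1, an isoform of the membrane subunit that lines the proton path, stood at 53.6, 53.2, 58.6, 55.4 and 31.1 CPM in APP LPS, 98.3, 93.6, 117, 66.9 and 21.6 in APP vehicle, 87.4, 54.1, 43.1, 119.9 and 32.1 in WT LPS and 130.4, 88.7, 86.2 and 44.4 in WT vehicle libraries. In APP, 4 of 5 vehicle libraries lay above every LPS library, and vehicle replicate 5 lay below them all. Its log2 change was −0.66 ± 0.39 in APP and −0.38 ± 0.41 in WT; without libraries 57 to 60 the APP value was −0.77, with an edgeR p of 0.0149 and an adjusted p of 0.744.

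Atp6v0c encodes the ring subunit that carries the protons, and its counts are uncertain because 2 named pseudogenes could share reads. It stood at 821, 1139, 729, 703 and 407 CPM in APP LPS, 804, 951, 983, 628 and 408 in APP vehicle, 1302, 976, 835, 766 and 745 in WT LPS and 849, 731, 735 and 532 in WT vehicle libraries. The change was 0.01 ± 0.26 in APP and 0.38 ± 0.28 in WT, and the groups overlapped. Of the remaining V0 subunits, Atp6v0b ranged from 136 to 354 CPM and Atp6v0e from 81.8 to 249.9 CPM over the 19 libraries; their changes were 0.10 and 0.10 in APP and 0.33 and 0.09 in WT.

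In the V1 sector, 4 of 8 subunits lay below 0 for LPS averaged over genotypes, with a median of 0.03. Atp6v1a, the catalytic subunit, stood at 588, 595, 639, 453 and 333 CPM in APP LPS, 525, 826, 844, 555 and 379.9 in APP vehicle, 681, 686, 436, 521 and 454 in WT LPS and 739, 597, 644 and 571 in WT vehicle libraries. The 2 highest values were APP vehicle replicates 2 and 3, and the change was −0.26 ± 0.23 in APP and −0.20 ± 0.24 in WT. Atp6v1b2, the nucleotide-binding B subunit isoform of most tissues, stood at 224, 207, 241, 133 and 74.6 CPM in APP LPS, 155, 195, 299, 146 and 73.2 in APP vehicle, 251, 256, 149, 176 and 102 in WT LPS and 191, 173, 157 and 99.4 in WT vehicle libraries. Libraries 57 to 60 held the lowest value of each group, and the change was 0.02 ± 0.34 in APP and 0.27 ± 0.36 in WT.

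Atp6v1c1, the C subunit that helps hold the sectors together, had the smallest p of the members in APP. It stood at 59.7, 109, 117, 72.7 and 58.2 CPM in APP LPS, 109.9, 146, 137, 107 and 77.0 in APP vehicle, 149.98, 122, 97.5, 80.7 and 82.0 in WT LPS and 113, 97.7, 114 and 119 in WT vehicle libraries. In APP LPS, replicates 1, 4 and 5 lay below every APP vehicle library, and replicates 2 and 3 lay among them. The change was −0.47 ± 0.24 in APP, with an edgeR p of 0.0640 and an adjusted p of 1.00, and −0.06 ± 0.25 in WT.

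Atp6v1h, the H subunit that regulates coupling, stood at 86.3, 130.3, 102, 62.8 and 70.2 CPM in APP LPS, 72.8, 67.7, 86.5, 101 and 76.0 in APP vehicle, 95.3, 109, 93.2, 77.0 and 73.6 in WT LPS and 100.2, 95.8, 70.6 and 74.5 in WT vehicle libraries. Its changes of 0.16 ± 0.21 in APP and 0.07 ± 0.23 in WT were smaller than their SE. Atp6v1d, Atp6v1e1, Atp6v1f and Atp6v1g1, which form the stalks and rotor of the V1 sector, had changes between −0.14 and 0.17 in APP and between −0.11 and 0.09 in WT. The 3′ end of Atp6v1e1 overlaps Slc25a18 on the opposite strand in the GRCm38 annotation, and whether counting used strand is not given.

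The accessory subunits lay near their vehicle level. Atp6ap1, which assists assembly of the pump, stood at 232, 241, 236, 194 and 91.3 CPM in APP LPS, 195, 207, 217, 214 and 112 in APP vehicle, 227, 168, 135, 184 and 156 in WT LPS and 174, 104, 174 and 126 in WT vehicle libraries. Its change was 0.07 ± 0.25 in APP and 0.27 ± 0.27 in WT, and APP replicate 5 was the lowest library of both APP groups. Atp6ap2, also known as the prorenin receptor, stood at 501, 577, 566, 520.0 and 245 CPM in APP LPS, 378, 527, 723, 585 and 321 in APP vehicle, 605, 591, 342, 561 and 315 in WT LPS and 570.1, 346, 492 and 408 in WT vehicle libraries. Its change was −0.07 ± 0.26 in APP and 0.09 ± 0.28 in WT, with overlapping groups.

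Lamp1 and Lamp2 are the structural glycoproteins of the lysosomal membrane. Lamp1, the most used marker of the lysosomal membrane, stood at 569, 697, 694, 501 and 324 CPM in APP LPS, 627, 735, 702, 619.6 and 317 in APP vehicle, 893, 834, 508, 694 and 467 in WT LPS and 767, 723, 720.3 and 434 in WT vehicle libraries. Its change was −0.11 ± 0.26 in APP and 0.04 ± 0.27 in WT, and its 3′ end overlaps Grtp1 on the opposite strand. Lamp2 stood at 269, 341, 349, 319 and 326 CPM in APP LPS, 335, 406, 386, 349.7 and 361 in APP vehicle, 356, 334, 248, 367 and 374 in WT LPS and 350.3, 275, 394 and 342 in WT vehicle libraries. Every APP vehicle library except replicate 1 lay above the highest APP LPS library, and the change was −0.20 ± 0.16 in APP and −0.02 ± 0.17 in WT.

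Scarb2, the receptor that carries glucocerebrosidase to lysosomes, stood at 135, 149, 124, 122 and 117 CPM in APP LPS, 145, 153, 155, 97.7 and 103 in APP vehicle, 128, 143, 146, 156 and 107 in WT LPS and 167, 137, 147 and 102 in WT vehicle libraries. Its change was −0.01 ± 0.19 in APP and −0.02 ± 0.20 in WT, among the smallest of the members. Mcoln1, a calcium channel of the lysosomal membrane, stood at 5.83, 14.3, 13.2, 11.7 and 4.24 CPM in APP LPS, 16.2, 10.3, 25.1, 3.17 and 6.98 in APP vehicle, 25.1, 4.80, 13.4, 4.27 and 7.21 in WT LPS and 21.4, 9.11, 12.2 and 7.19 in WT vehicle libraries. These low values spread over several-fold within every group, and the changes of −0.32 ± 0.61 in APP and −0.18 ± 0.65 in WT had SEs larger than themselves.

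Cd68 and Laptm5 are membrane proteins of macrophage and other blood-lineage lysosomes. Cd68 stood at 148, 112, 89.3, 35.6 and 25.5 CPM in APP LPS, 165, 239.9, 139, 59.1 and 36.2 in APP vehicle, 207, 136, 78.9, 116 and 38.7 in WT LPS and 182, 119, 119 and 67.5 in WT vehicle libraries. Replicate 5 was the lowest library of each group that has one, replicate 4 was low in both APP groups, and the groups overlapped. The change was −0.63 ± 0.50 in APP and −0.08 ± 0.53 in WT. Between WT LPS and vehicle libraries with consecutive numbers, the log2 ratios of Cd68 were −0.42, −0.59, −0.03 and −0.80. WT LPS replicate 1, the highest of its group, has no such partner. Its own number is 5 in its label and 6 in its deposited data, and no WT vehicle library directly precedes either. With consecutive library numbers as blocks, the WT change of Cd68 was −0.46 ± 0.18 and was not called. Laptm5 stood at 478, 564, 647, 417 and 141 CPM in APP LPS, 597, 665, 1097, 559 and 196 in APP vehicle, 665, 598, 548, 662 and 346 in WT LPS and 802, 722, 614 and 360.2 in WT vehicle libraries. Its change was −0.47 ± 0.37 in APP and −0.15 ± 0.39 in WT, and libraries 57 to 60 were the lowest of their groups.

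Npc1, the membrane protein that exports cholesterol from lysosomes, stood at 71.4, 97.9, 32.9, 38.3 and 46.8 CPM in APP LPS, 78.4, 96.9, 107, 54.3 and 53.6 in APP vehicle, 44.6, 65.8, 50.8, 58.5 and 81.0 in WT LPS and 115, 78.5, 98.9 and 82.9 in WT vehicle libraries. In WT, LPS replicates 1 to 4 lay below every vehicle library, and LPS replicate 5 lay among them. The change was −0.44 ± 0.29 in APP and −0.64 ± 0.30 in WT, and −0.54 ± 0.21 averaged, with an edgeR p of 0.0165 and an adjusted p of 0.691. Leaving out 1 library at a time gave −0.68 to −0.47. Its 3′ end overlaps Rmc1 on the opposite strand. Cln3, a lysosomal membrane protein lost in juvenile Batten disease, stood at 5.62, 32.5, 33.2, 24.9 and 12.98 CPM in APP LPS, 33.4, 24.4, 55.0, 38.7 and 12.6 in APP vehicle, 55.5, 50.8, 28.7, 45.2 and 27.6 in WT LPS and 34.1, 24.9, 40.5 and 25.96 in WT vehicle libraries. The lowest value of all was APP LPS replicate 1, and the changes of −0.59 ± 0.42 in APP and 0.41 ± 0.44 in WT had opposite signs.

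The lipid transfer and activator proteins did not share a direction. Npc2, the soluble carrier that hands cholesterol to Npc1, stood at 1068, 1254, 825, 792 and 532 CPM in APP LPS, 954, 1076, 770.4, 772 and 474 in APP vehicle, 1437, 1013, 777, 849 and 658 in WT LPS and 1018, 591, 1005 and 569.7 in WT vehicle libraries. Its change was 0.14 ± 0.27 in APP and 0.25 ± 0.29 in WT, above 0 in both. Psap, the precursor of the saposins that present sphingolipids to hydrolases, stood at 1635, 1881, 1603, 1444 and 663 CPM in APP LPS, 2126, 2464, 1577, 1804 and 1106 in APP vehicle, 3025, 2106, 1355, 1852 and 1057 in WT LPS and 2086, 2317, 2027 and 1433 in WT vehicle libraries. Its change was −0.33 ± 0.29 in APP and −0.07 ± 0.31 in WT, with the highest value in WT LPS replicate 1 and the lowest in APP LPS replicate 5. Gm2a, the activator of ganglioside breakdown by hexosaminidase, stood at 55.4, 65.6, 53.0, 48.6 and 32.8 CPM in APP LPS, 57.9, 96.4, 70.6, 40.4 and 31.2 in APP vehicle, 56.0, 42.7, 52.5, 46.9 and 27.3 in WT LPS and 73.7, 70.5, 68.7 and 35.3 in WT vehicle libraries. In WT, 3 vehicle libraries lay above all LPS libraries and replicate 4 below all but LPS replicate 5, with a change of −0.46 ± 0.32, against −0.21 ± 0.30 in APP.

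The 12 hydrolases had changes between −0.58 (Man2b1) and 0.03 (Smpd1) in APP and between −0.52 (Man2b1) and 0.08 (Naglu) in WT. Ppt1, which removes palmitate from proteins, stood at 171, 193, 227, 255 and 133 CPM in APP LPS, 201, 267, 386, 343 and 161 in APP vehicle, 144, 255, 187, 271 and 169.7 in WT LPS and 273, 268, 343 and 155 in WT vehicle libraries. Its change was −0.47 ± 0.26 in APP and −0.34 ± 0.28 in WT, and −0.41 ± 0.19 averaged, with an edgeR p of 0.0446 and an adjusted p of 0.797. The groups overlapped in both genotypes, and its 3′ end overlaps Cap1 on the opposite strand.

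Man2b1, the lysosomal alpha-mannosidase, was picked out after its values were seen. It stood at 49.5, 63.0, 39.4, 32.8 and 20.9 CPM in APP LPS, 56.8, 112, 73.0, 41.6 and 24.4 in APP vehicle, 80.9, 52.7, 57.5, 27.6 and 23.9 in WT LPS and 85.9, 80.8, 56.2 and 54.6 in WT vehicle libraries. The vehicle values reached higher than the LPS values in both genotypes, with changes of −0.58 ± 0.38 in APP and −0.52 ± 0.40 in WT, and −0.55 ± 0.28 averaged, with an edgeR p of 0.0602 and an adjusted p of 0.826. Tpp1, a tripeptidyl peptidase, stood at 350.4, 227, 307, 191 and 249.97 CPM in APP LPS, 407, 346, 409, 307 and 220.4 in APP vehicle, 385, 297, 253, 408 and 267 in WT LPS and 515, 297, 385 and 259 in WT vehicle libraries. Its change was −0.35 ± 0.23 in APP and −0.18 ± 0.24 in WT, with overlapping groups.

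Hexa, the alpha chain of beta-hexosaminidase, stood at 307, 329.6, 190.0, 130.0 and 77.0 CPM in APP LPS, 308, 565, 280.0, 158 and 98.3 in APP vehicle, 465, 203, 202, 225 and 179.6 in WT LPS and 266, 345, 198 and 185 in WT vehicle libraries. APP vehicle replicate 2 and WT LPS replicate 1 were the highest, and the change was −0.45 ± 0.41 in APP and 0.04 ± 0.43 in WT. Gla, the alpha-galactosidase that cleaves glycosphingolipids, stood at 134, 89.6, 127, 65.1 and 55.9 CPM in APP LPS, 107, 121, 166, 94.6 and 52.7 in APP vehicle, 124, 125, 42.5, 149 and 84.0 in WT LPS and 140.1, 100.1, 126 and 105 in WT vehicle libraries. Its change was −0.20 ± 0.32 in APP and −0.17 ± 0.34 in WT, smaller than the SE in both. Gaa, the enzyme that breaks down glycogen in lysosomes, stood at 19.9, 15.4, 6.68, 5.24 and 18.6 CPM in APP LPS, 31, 18.8, 5.76, 7.22 and 13.03 in APP vehicle, 16.4, 11.4, 12.8, 8.27 and 25.2 in WT LPS and 13.6, 28.9, 5.31 and 19.6 in WT vehicle libraries. It was low and variable in every group, with a change of −0.21 ± 0.54 in APP and −0.19 ± 0.57 in WT.

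Smpd1, the acid sphingomyelinase, stood at 52.3, 21.6, 12.2, 11.8 and 21.9 CPM in APP LPS, 25.3, 31.9, 26.4, 18.9 and 15.4 in APP vehicle, 22.2, 8.45, 19.3, 15.6 and 17.3 in WT LPS and 7.06, 49.1, 10.2 and 14.3 in WT vehicle libraries. APP LPS replicate 1 and WT vehicle replicate 2 were far above the other libraries of their groups, and the change was 0.03 ± 0.49 in APP and −0.28 ± 0.52 in WT. Naglu, which removes N-acetylglucosamine from heparan sulfate, stood at 30.2, 17.4, 16.0, 20.9 and 16.4 CPM in APP LPS, 27.5, 41.9, 29.9, 20.6 and 20.5 in APP vehicle, 45.3, 21.4, 29.7, 38.6 and 24.3 in WT LPS and 36.02, 28.3, 30.5 and 25.4 in WT vehicle libraries. Its change was −0.48 ± 0.30 in APP and 0.08 ± 0.31 in WT. The other hydrolases were Glb1 (beta-galactosidase), Gusb, Neu1 (a sialidase) and Asah1 (acid ceramidase). Their changes ran from −0.45 for Glb1 to −0.11 for Neu1 in APP and from −0.20 for Glb1 to −0.07 for Neu1 in WT.

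The transcription factors showed no direction after LPS. Tfe3 stood at 31.1, 42.1, 48.0, 37.1 and 15.6 CPM in APP LPS, 35.5, 44.5, 38.2, 28.7 and 20.9 in APP vehicle, 28.3, 57.6, 45.1, 34.3 and 38.6 in WT LPS and 47.5, 10.4, 41.6 and 38.0 in WT vehicle libraries. Its change was 0.05 ± 0.36 in APP and 0.25 ± 0.38 in WT, with the lowest value in WT vehicle replicate 2. Mitf stood at 7.14, 34.3, 70.7, 39.7 and 14.7 CPM in APP LPS, 29, 29.1, 67.2, 49.3 and 12.3 in APP vehicle, 32.9, 61.1, 34.6, 48.9 and 24.2 in WT LPS and 63.4, 27.8, 47.6 and 15.3 in WT vehicle libraries. It ranged from 7.14 to 70.7 CPM within APP LPS alone, and the change was −0.17 ± 0.51 in APP and 0.07 ± 0.54 in WT. Tfeb stood at 0, 0, 4.98, 4.49 and 1.47 CPM in APP LPS, 1.38, 9.70, 0, 0 and 0.0738 in APP vehicle, 1.58, 1.60, 2.13, 0.129 and 0.455 in WT LPS and 0, 4.85, 0 and 0 in WT vehicle libraries. Libraries at 0 and libraries above 1 CPM occurred in 3 of the 4 groups, and with an SE above 2 on the log2 scale a change was not detectable at this depth.

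**Figure D3:**
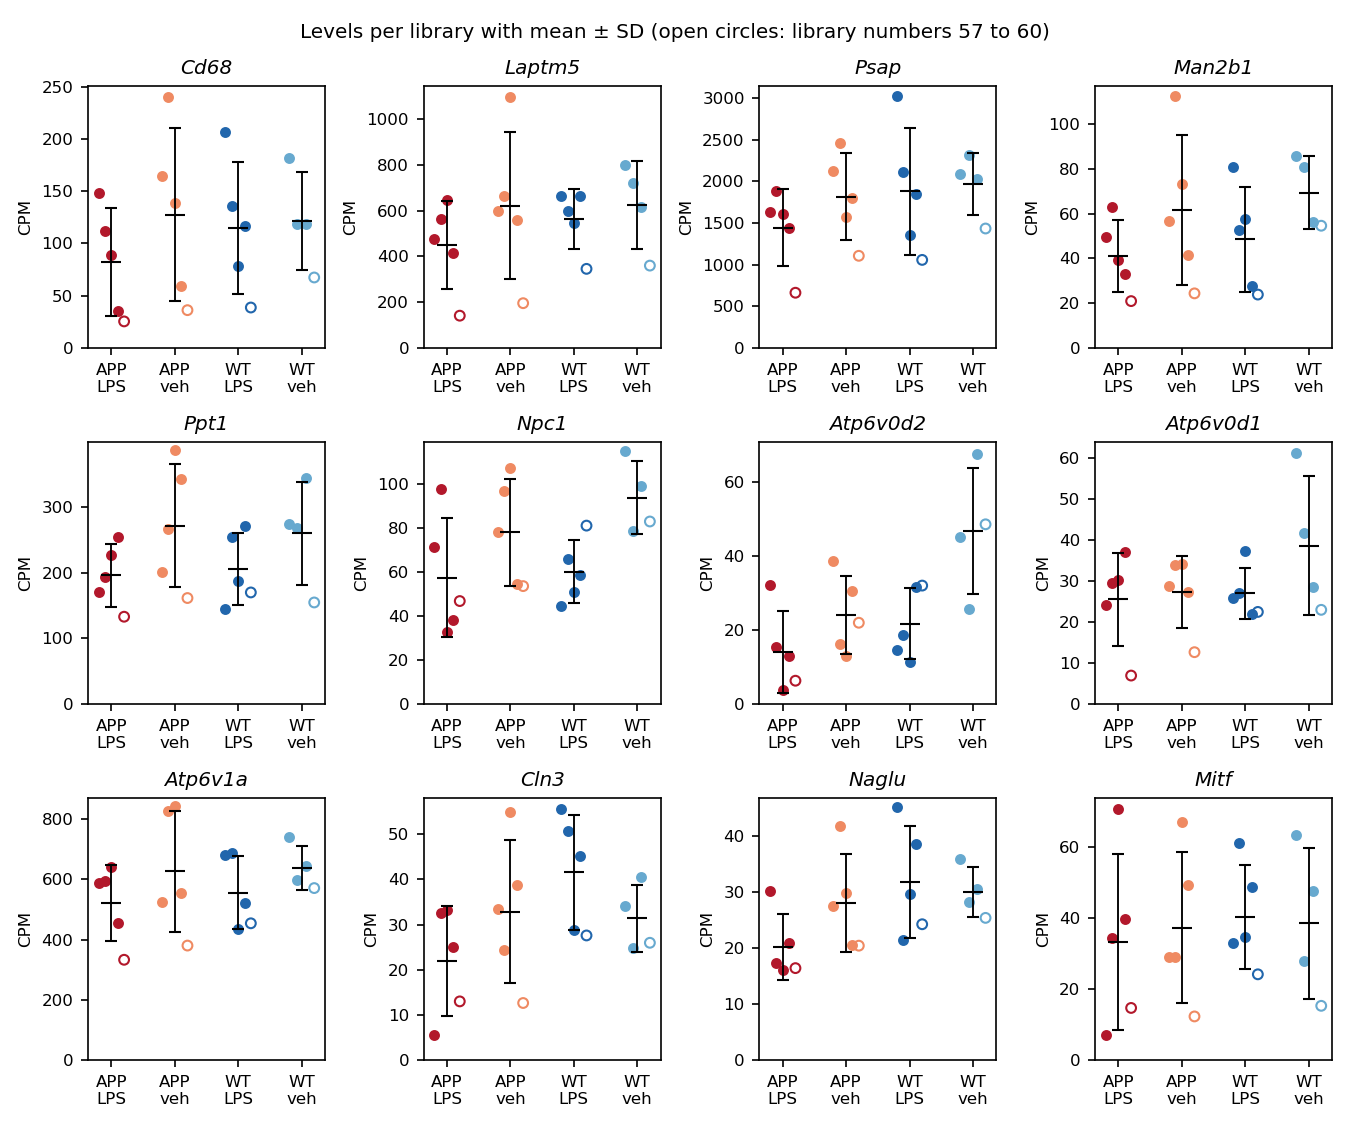
Level of 12 of the genes in CPM in each library, by group, with mean and SD as bars; open circles are libraries 57 to 60. Atp6v0d2 and Npc1 show their highest group in WT vehicle, at 46.8 ± 17.1 and 93.8 ± 16.5 CPM (SD, n = 4), and Cd68 and Laptm5 show the lowest value of each group in the open circles.

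In APP cells, LPS and vehicle libraries with the same replicate number could be paired, since all 5 pairs deviated together from their group means. Within these pairs the hydrolases, activator and membrane proteins had a median below vehicle each time, and the V-ATPase subunits had one nearer to 0 in 4 of 5. The class median of the log2 ratio of LPS to vehicle was −0.16, −0.29, −0.54, −0.34 and −0.15 in pairs 1 to 5 for the hydrolases, activator and membrane proteins. For the V-ATPase subunits it was 0.10, −0.14, −0.20, −0.08 and −0.25 in the same pairs. The V-ATPase median minus the other lay between 0.16 and 0.33 in pairs 1 to 4 and was −0.10 in pair 5, which is the pair of libraries 59 and 60. Over all genes tested the median was −0.23 in pair 1 and 0 in the other 4. No test was made of a class median.

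**Figure D4:**
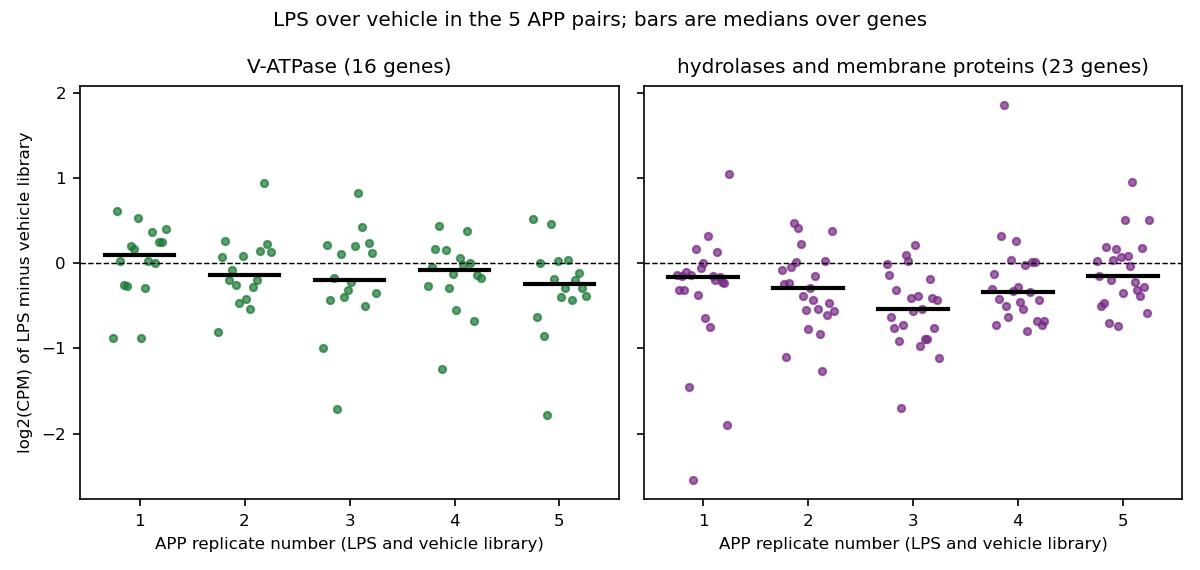
Log2 ratio of LPS to vehicle in each of the 5 APP pairs, 1 point for a gene and a bar for the class median; V-ATPase subunits left, hydrolases, activator and membrane proteins right. The right-hand bars lie between −0.54 and −0.15, and the left-hand bars between −0.25 and 0.10.

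Across these pairs, 9 of 42 members lay below vehicle in 5 of 5, where 4.99% of all genes did, and 18 of 42 lay below it in at least 4 of 5, where 21.5% did. The 9 were Atp6v0d2 and Atp6v1c1 of the pump, the membrane proteins Lamp2, Cd68 and Laptm5, and the hydrolases Hexa, Glb1, Man2b1 and Ppt1. Npc2 was the single member above vehicle in 5 of 5 pairs, where 3.7% of all genes were. These shares over all genes are not matched for level to the members. They include genes without counts in either library of a pair, whose ratio is 0 apart from rounding. The log2 ratios of Cd68 in pairs 1 to 5 were −0.15, −1.10, −0.63, −0.73 and −0.51. Those of Laptm5 were −0.32, −0.24, −0.76, −0.42 and −0.47. Both thus lay below vehicle in every pair, from −0.76 to −0.24 for Laptm5 and from −1.10 to −0.15 for Cd68. Those of Atp6v0d2 were −0.27, −0.08, −1.72, −1.24 and −1.79. Those of Ppt1 were −0.23, −0.47, −0.76, −0.43 and −0.28. Npc2 had ratios between 0.04 and 0.22. In an edgeR fit over both genotypes with consecutive library numbers as blocks, 83 genes were called in APP (0.588%) and 0 members. In that fit the WT libraries were blocked too, although 3 of their 4 pairs met the limit for pairing. The smallest adjusted p of a member in APP was 0.110, for Cd68 (−0.62 ± 0.16) and for Laptm5 (−0.44 ± 0.12). For LPS averaged over genotypes it called 2 members, Cd68 and Man2b1, both lower, where 1.5% of all genes were called.

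The second question was how APP cells differed from WT cells under the same treatment. After LPS, most members lay lower in APP than in WT, and with vehicle they were closer to evenly split. After LPS, 21 of the 23 hydrolases, activator and membrane proteins lay below 0, with a median log2 difference of −0.24, and 13 of the 16 V-ATPase subunits, with a median of −0.09, where 50.3% of all genes lay below 0. With vehicle, 15 of 23 lay below 0, with a median of −0.08, and 9 of 16, with a median of −0.03, where 48.7% of all genes did. APP LPS and WT LPS each hold 5 libraries, and the V-ATPase median after LPS was 0.06 without APP LPS replicate 5. In WT LPS replicate 1, the hydrolases, activator and membrane proteins had the highest class median of the 19 libraries. It was 0.57 in log2 CPM relative to each gene's mean, against −0.34 to 0.18 in the other WT LPS libraries. Without libraries 57 to 60, the medians after LPS were −0.19 and −0.01, and with vehicle −0.05 and 0.06. The median of the hydrolases, activator and membrane proteins with vehicle was 0.05 without APP vehicle replicate 5 and 0.03 without WT vehicle replicate 1.

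Marker lists of macrophages and of other cells were read in these comparisons too, and none of their genes was called. After LPS, 11 of the 14 macrophage markers lay below 0, with a median of −0.19, and with vehicle 10 of 14 did, with a median of −0.11. Of the 16 pericyte, smooth muscle and fibroblast markers, 10 lay above 0 after LPS, with a median of 0.13, and 14 with vehicle, with a median of 0.40. Of 8 astrocyte markers, 6 lay above 0 after LPS, with a median of 0.83, and 7 with vehicle, with a median of 1.28. The astrocyte markers summed to 68.2 to 316 CPM in APP LPS, 66.3 to 293 CPM in APP vehicle, 53.2 to 105 CPM in WT LPS and 52.3 to 103 CPM in WT vehicle libraries, and the astrocyte genes Gfap and Aqp4 had no count in 11 libraries each. Replicates 1 and 5 held the high astrocyte sums, at 316 and 182 CPM in APP LPS and 293 and 194 CPM in APP vehicle. APP replicates 2 to 4 had 66.3 to 79.4 CPM, within the range of the WT libraries. The part of any of these cell types in the lysosomal values was not tested.

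By edgeR, 0 members were called in either comparison, where 0% of all genes were called. DESeq2 called 0 members among 69 genes after LPS and 64 with vehicle, and limma voom called 0 members among 1 gene after LPS and 0 with vehicle. At an unadjusted edgeR p under 0.05, 0 members were found with vehicle, where 2.03% of all genes were higher and 0.822% lower. After LPS, 2 were found, both lower, Cln3 and Naglu, where 1.05% of all genes were higher and 2.37% lower. Cln3 averaged 21.8 ± 12.2 CPM in APP LPS and 41.6 ± 12.8 CPM in WT LPS (SD, n = 5 each), with a log2 difference of −0.93 ± 0.42 and an edgeR p of 0.0374 (adjusted p = 1.00). APP LPS replicate 1, at 5.62 CPM, carried part of this difference, which was −0.68 without it, and the groups overlapped. Naglu averaged 20.2 ± 5.92 CPM in APP LPS and 31.9 ± 9.97 CPM in WT LPS, with a difference of −0.66 ± 0.30 and an edgeR p of 0.0379 (adjusted p = 1.00). WT LPS replicate 1, at 45.3 CPM, was the highest Naglu value, and without it the difference was −0.50.

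With vehicle, Atp6v0d2 averaged 24.1 ± 10.5 CPM in APP and 46.8 ± 17.1 CPM in WT (SD, n = 5 and 4), a log2 difference of −0.96 ± 0.50 with an edgeR p of 0.0681 (adjusted p = 1.00). After LPS it averaged 14.1 ± 11.1 CPM in APP and 21.7 ± 9.66 CPM in WT, a difference of −0.62 ± 0.47. Averaged over treatments, the difference was −0.79 ± 0.34, with an edgeR p of 0.0325 and an adjusted p of 1.00, and −0.57 without libraries 57 to 60. It was the sole member at an unadjusted p under 0.05 in that comparison, where 1.81% of all genes were higher and 1.64% lower, and 0 members were called. In the same comparison 34 of the 42 members lay below 0, where 49.2% of all genes did, and 12 of the 14 macrophage markers did, with a median of −0.14. Atp6ap1 lay on the other side: it averaged 189 ± 43.8 CPM in APP vehicle and 145 ± 35.3 CPM in WT vehicle, a difference of 0.38 ± 0.27. Naglu, with −0.38 ± 0.22, and Atp6ap1, with 0.29 ± 0.18, had the next smallest p over both treatments.

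The difference of the LPS change between genotypes was tested as an interaction. Relative to WT, 19 of the 23 hydrolases, activator and membrane proteins had a lower LPS change in APP, with a median of −0.15, and 10 of the 16 V-ATPase subunits, with a median of −0.11, where 53% of all genes did, with a median of −0.03. EdgeR called 0 members among 0 genes, limma voom 0 among 0 and DESeq2 0 among 99. At an unadjusted p under 0.05 edgeR found 0 members, where 0.744% of all genes were higher and 1.98% lower. The smallest p was that of Cln3, at −0.99 ± 0.61 (edgeR adjusted p = 1.00), followed by Naglu at −0.56 ± 0.43 and Atp6v1c1 at −0.41 ± 0.35. Of the 14 macrophage markers, 11 lay below 0, with a median of −0.12. With consecutive library pairs as blocks, fewer of the hydrolases, activator and membrane proteins lay below 0, though still most of them. Their interaction values there ran from −0.91 for Cln3 to 0.58 for Mcoln1, and no member was called. The group fit includes WT LPS replicate 1, which has no consecutive vehicle library. Its class median of log2 CPM, relative to each gene's mean, was the highest of the 19 libraries, at 0.57. The comparisons within APP, within WT and between genotypes share libraries, so their values are not independent of each other.

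No member had groups whose ranges did not overlap, in any of the comparisons of 2 groups. Such separation was rare over the whole table: between LPS and vehicle, 0.255% of all genes were separated upward and 0.333% downward in APP, and 0.723% and 0.581% in WT. Between APP and WT these were 0.163% and 0.333% after LPS and 0.475% and 0.368% with vehicle.

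Libraries 57 to 60 held less of most members than the rest of their groups. In each of the 4 groups, 34 of the 42 members lay lower in the numbered library than in the mean of the others of its group, where 14.4% of all genes did so. In 15 members that library was the lowest of its group each time, where 4.29% of all genes were. The mean log2 difference over the groups had a median of −0.63 over the V-ATPase subunits and −0.78 over the hydrolases, activator and membrane proteins, against 0.19 over all genes tested. The 14 macrophage and microglia markers had a median of −1.91 and lay lower in all 4 groups in 14 of 14 cases, and the 16 pericyte, smooth muscle and fibroblast markers had a median of 0.94. These libraries were singled out by earlier results of the same data, so the counts are descriptions.

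**Figure D5:**
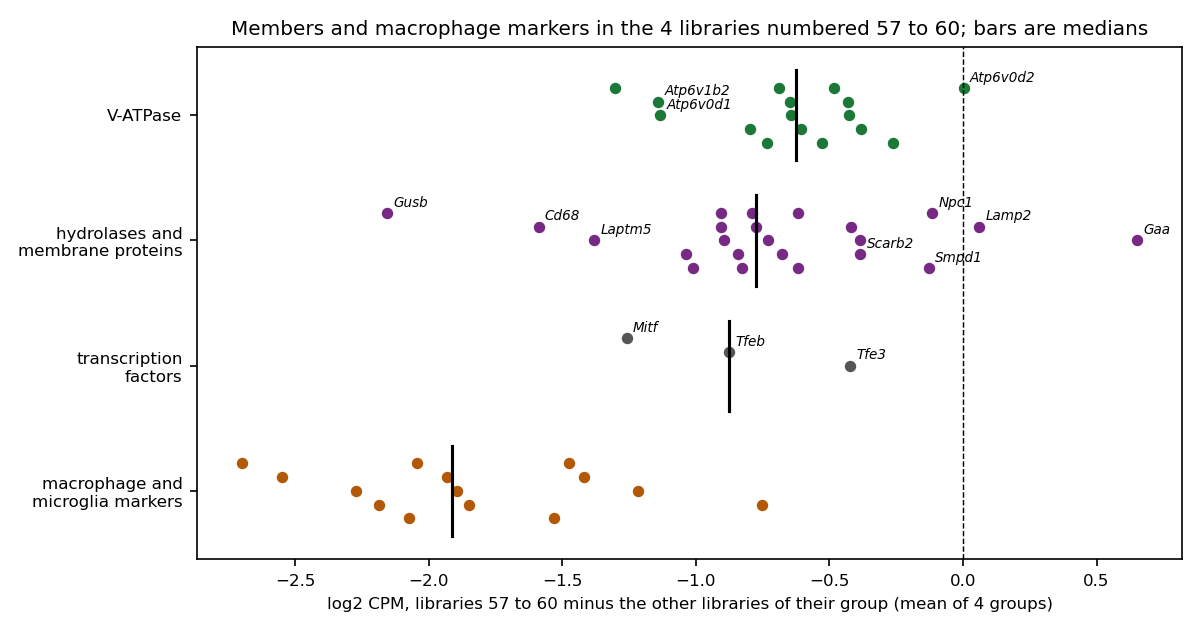
Log2 CPM of libraries 57 to 60 minus the mean of the other libraries of their group, averaged over the 4 groups; 1 point for a gene, with class medians as bars. The V-ATPase and hydrolase classes have medians of −0.63 and −0.78, short of the macrophage markers at −1.91, and Atp6v0d2, Lamp2 and Gaa lie at or above 0.

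The members were not equally low there. Gusb averaged 51.6 CPM in libraries 57 to 60 and 206 CPM in the other 15, with a mean log2 difference of −2.16. Cd68 averaged 42.0 and 129.7 CPM, with −1.59, and Laptm5 averaged 261 and 642 CPM, with −1.38. These 3 had the lowest values of the 42. Among pump subunits Atp6v0a1 and Atp6v1b2 lay lowest, with −1.30 and −1.14. At the other end, Gaa lay above the rest in 4 of 4 groups, where 22.7% of all genes did, at 19.1 CPM against 13.8 CPM, with 0.65. Lamp2 had 0.06, Atp6v0d2 had 0.00, and Npc1 had −0.12. Psap averaged 1065 CPM in these libraries and 1953 CPM in the others.

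Further genes of the lysosome, from lists that hold none of the 42, were read beside them in the LPS comparison averaged over genotypes. Without blocks, no gene of these lists was called by edgeR except in the list of LPS response genes. The changes given are from that fit unless library pairs are named. Of 31 other lysosomal hydrolases, 25 lay below 0, with a median of −0.31. Lipa, the acid lipase, averaged 125 ± 67.3 CPM in APP LPS, 244 ± 98.7 CPM in APP vehicle, 164 ± 68.4 CPM in WT LPS and 257 ± 81.5 CPM in WT vehicle libraries, with an averaged change of −0.81 ± 0.30. With consecutive library pairs as blocks, Lipa was called lower averaged over genotypes (edgeR adjusted p = 2.93e-04). In that fit it was also called in APP (−1.12 ± 0.17, adjusted p = 0.00461). It was not called in WT (−0.88 ± 0.19, adjusted p = 0.0943). Of 21 other membrane proteins and channels, 12 lay below 0, with a median of −0.20. Slc17a5, the sialic acid exporter, had −0.72 ± 0.25, and Tmem106b had −0.42 ± 0.15.

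Of 9 sorting genes, 6 lay below 0, with a median of −0.05; Gnptg, a subunit of the enzyme that makes the mannose-phosphate tag, had −0.73 ± 0.26, and the sorting receptor Sort1 had −1.20 ± 0.50. Of 18 genes that control TFEB through mTORC1, 12 lay below 0, with a median of −0.05. Rragd, a Rag GTPase of that pathway, averaged 12.2 ± 5.77 CPM in APP LPS, 27.8 ± 6.51 CPM in APP vehicle, 19.2 ± 3.78 CPM in WT LPS and 34.6 ± 10.2 CPM in WT vehicle libraries. Its change of −1.02 ± 0.25 had an edgeR p of 5.24e-04 and an adjusted p of 0.264, and Rragc had −0.39 ± 0.16. With library pairs as blocks, Rragc was called lower averaged over genotypes (−0.44 ± 0.11, edgeR adjusted p = 0.0499). Rragd was not called there (adjusted p = 0.0999). Of 4 other V-ATPase subunits tested, 1 lay below 0, Atp6v0a2 at −0.21 ± 0.23, and Tcirg1, the subunit a isoform of osteoclasts, had 0.17 ± 0.22. Of 10 assembly factors and regulators of the pump, 6 lay below 0, and Oxr1 and Dmxl1 had −0.42 ± 0.20 and −0.43 ± 0.24. The 6 LPS response genes all lay above 0, with a median of 1.38. Il1b had 3.05 ± 0.48 and Tnf 1.56 ± 0.24, both with an edgeR adjusted p of 0.0148.

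The promoter letters were set beside the same change. The 11 members with TCACGTG in their promoter window had a median averaged LPS change of −0.20, with 9 below 0, and the 24 matched members without it had −0.10, with 17 below 0. In APP the medians were −0.21 and −0.15, and in WT −0.17 and −0.03. Of the stretches printed above, those of Lamp1, Mcoln1, Cln3, Gla and Naglu belong to hydrolase and membrane genes with averaged changes of −0.03, −0.25, −0.09, −0.18 and −0.20, and those of Atp6v0b and Atp6v1a to pump genes with 0.21 and −0.23.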

How the data were processed

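RNA of 19 libraries of cultured mouse microglia was read by QuantSeq 3′ FWD sequencing. The deposited tables, 1 for each library, hold estimated counts per gene symbol; FastQC, Trimmomatic, kallisto and DESeq2 are named in the submitters' processing notes, while versions, genome build, collapsing of molecular identifiers and use of strand were not given in the sources used here. All estimated counts were whole as deposited, and every gene had at least 10 counts over the libraries, so the tables had been filtered before deposit. A library differed from others of its group by at least 85.9 in chi-square per degree of freedom, so none was counted as a duplicate.

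Groups were taken from the sample labels. Genes with low counts were removed with edgeR's filterByExpr, which kept 14113 of 16941. The 4 groups were fitted together with TMM normalization in edgeR 4.0.16 (R 4.3.3), the quasi-likelihood test was applied to 7 contrasts, and p-values were adjusted by Benjamini-Hochberg over all genes tested, with a threshold of 0.05. Log2 CPM used a prior count of 2. Library totals of 13065257 to 31248988 counts limit the precision of low genes, and reads without known molecular identifiers are not independent molecules. RLE size factors, DESeq2 1.42.0, limma 3.58.1 voom, no filter, replicate blocks and the omission of single libraries or of libraries 57 to 60 were tried as alternatives. The statistics were tested on simulated counts drawn independently for each library. Those counts held no library pairs, so they do not show how the fits handle paired libraries. In APP, same-numbered LPS and vehicle libraries correlated in their deviations from group means (0.130 to 0.352, 5 of 5 pairs over 0.1) and carry consecutive library numbers, so they were taken as pairs.

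The members and all gene lists were chosen with earlier results of these data known. Values in every library are given for the 3 members with the smallest p in each contrast and for others picked by role; of each further list, up to 2 genes with the smallest p for LPS averaged over genotypes are named. Promoters came from RefSeq (GRCm38.p6), and overlaps of gene ends and pseudogenes from the GENCODE annotation of GRCm38. Members with no promoter record were Atp6v0d2, Atp6v1b2, Atp6v1c1, Atp6v1g1, Atp6v1h, Npc1 and Asah1. A result for 1 gene of these lists is not reported here.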

Additional observations from a re-analysis of the deposited data

Results flagged for a closer look

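Within groups of 4 or 5 libraries, 10 values stood far from the others of their group, out of 168 sets of values tested (42 genes in 4 groups), by a gap that exceeded Dixon's critical share of the range. Chance alone gives about 1 in 20. Of the 10, 6 were low, and all 6 were in libraries 57 to 60.

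Among pump genes, Atp6v0a1 had 31.1 CPM in APP LPS replicate 5, where the other APP LPS libraries had 53.2 to 58.6 CPM. Atp6ap2 had 245 CPM in the same library, where the others had 501 to 577 CPM. Atp6ap1 had 112 CPM in APP vehicle replicate 5, where the others had 195 to 217 CPM. Lamp1 was low both in APP vehicle replicate 5, at 317 CPM, where the others had 619.6 to 735 CPM, and in WT vehicle replicate 4, at 434 CPM, where the others had 720.3 to 767 CPM. Gm2a had 35.3 CPM in WT vehicle replicate 4, where the others had 68.7 to 73.7 CPM.

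The other 4 were high. Hexa had 465 CPM in WT LPS replicate 1, where the others had 179.6 to 225 CPM. Smpd1 had 52.3 CPM in APP LPS replicate 1, where the others had 11.8 to 21.9 CPM. Tfeb had 9.70 CPM in APP vehicle replicate 2, where the others had 0 to 1.38 CPM, and 4.85 CPM in WT vehicle replicate 2, where the others had no count.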

How the results depend on the processing

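Of 705 alternative values of counts and class medians over 40 settings, 694 stayed within 1.5 times the count or within the spread between replicates, and 11 moved. Over all 9828 alternative values, single genes included, 939 moved and 14 became calls. With all 9 consecutive library pairs of both genotypes as a replicate block, 2 members were called for LPS averaged over genotypes, where 211 genes were called in all: Man2b1 (−0.68, edgeR adjusted p = 0.0262) and Cd68 (−0.54, adjusted p = 0.0275). Without libraries 57 to 60, this block called 1 member, Gusb (−0.47, adjusted p = 0.0376), where 282 genes were called. With 1 pair left out at a time it called 0 to 3 members and 116 to 282 genes; Atp6v0d2 was among them without the APP pair of library 3 or of library 7, and Psap without that of APP library 11 or WT library 9. It called 0 members when the pair of WT libraries 57 and 58 was left out. Only 3 of the 4 WT pairs were over 0.1 (0.0959 to 0.292), and WT libraries sharing a number in their titles were not (−0.09 to 0.07), so WT libraries were not taken as pairs. That decision rests on the pair at 0.0959. By the same correlation, 4 of 4 WT vehicle libraries were closest to their consecutive LPS library among the WT LPS libraries. In APP, 4 of 5 were. Across the consecutive WT pairs the median log2 ratio of the hydrolases, activator and membrane proteins was −0.33, −0.49, −0.10 and −0.03, below 0 in 4 of 4. That of the V-ATPase subunits was 0.08, −0.03, 0.05 and −0.11. The V-ATPase median minus the other was thus 0.41, 0.46, 0.15 and −0.07. It was below 0 in the pair of libraries 57 and 58, as in the APP pair of libraries 59 and 60. The replicate block by title number called 0 members and 15 genes for LPS averaged; the 10 APP libraries alone, with their pairs as a block, called 0 members and 13 genes in APP, with a smallest adjusted p of 0.227 (Laptm5). The median of hydrolases, activator and membrane proteins for LPS in WT was 0.02 under the title-number block, and for APP against WT with vehicle it was 0.05. With the window before the start alone, TCATGTG stood in 3 promoters. Fits chosen after seeing the data (the pair block with libraries left out, the APP libraries alone with their pairs, limma voom with the pair as a random effect, and sex added) called no member, except the pair blocks given above. The causes were not tested. Over all genes, calls for LPS averaged ran from 0 to 11 when 1 library was left out, and were 31 without libraries 57 to 60, against 3. At this depth Tfeb, with no count in 7 libraries, could not be compared.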
